A study of Mus musculus with 12 samples.

Results

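The proteasome is the main protease of the cytosol and nucleus, and the levels of its transcripts were followed in interscapular brown fat of mice with and without Cdk7. Its genes were taken by symbol and biotype: every protein-coding Psma, Psmb, Psmc, Psmd or Psme gene with a number, plus Nfe2l1, Psmf1, Pomp and Adrm1, with at least 10 counts in 3 or more of the 12 libraries. This gave 46 of the 53379 genes in the files, out of 49 that matched by symbol and biotype. The other 3 were nearly silent: Psma8, the testis form of an alpha subunit, had 1 to 6 counts per library, Psmb11, the thymus form of a beta subunit, had 0 to 5, and Psme2b had 0 in each. All 46 genes had at least 10 counts in each of the 12 libraries, and all 46 were among the 15208 genes tested.

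The groups were CDK7 bKO mice (a deletion of Cdk7 in brown fat, KO) after 6 h of cold, wild-type control littermates (WT) after 6 h of cold, KO mice at room temperature (RT) and WT mice at RT. All were C57BL/6 mice of 12 weeks on standard chow, sampled at zeitgeber time 9, and food was present during the cold. Each group had 3 libraries, and each library held RNA pooled from 2 mice of the same genotype and condition, so n = 3 pools throughout. The driver of the deletion, the sex of the mice and the temperature of the cold are not given in the sources used here.

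The proteasome core is a barrel of alpha rings around beta rings, and the beta subunits Psmb5, Psmb6 and Psmb7 carry its peptide-cutting sites. The 19S cap binds ubiquitin-tagged proteins through its base, unfolds them with its ATPases (the Psmc genes) and removes the ubiquitin in its lid. In the immunoproteasome Psmb8, Psmb9 and Psmb10 take the places of Psmb5, Psmb6 and Psmb7, a form that interferon induces and that is known for cutting peptides shown on MHC class I. NFE2L1 is the transcription factor that raises the subunit genes when proteasome capacity is short, and in mouse brown fat it is known to be needed for the proteasome activity that goes with cold.

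Gene counts per library ran from 27609717 to 36792555, and the 46 genes took 0.280 to 0.394% of them. Cdk7 itself had 4.85 to 5.39 CPM (a gene's share of the library's counts, scaled by TMM factors) in KO cold pools, 15.7 to 17.95 in WT cold, 4.35 to 5.77 in KO RT and 15.1 to 16.4 in WT RT, so the labels of genotype were borne out in each pool. All 10 brown adipocyte markers were detected in every group. Skeletal muscle markers stood out in 2 libraries, at a summed 1402 CPM in KO RT replicate 6 and 1083 CPM in WT RT replicate 2, against 39.7 to 494 CPM in the other 10. Counts that lead a comparison are therefore also given without these 2. This does not level the muscle markers for cold in WT: WT RT replicates 1 and 3 had 494 and 173 CPM, against 73.0 to 172 in WT cold. In bulk tissue, fewer cells of a type and less RNA per cell cannot be told apart.

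Per kilobase of exon, the 46 genes spanned a wide range of levels. Averaged over the 12 libraries, the highest were the alpha subunit Psma6 at 105 CPM per kb, the beta subunit Psmb2 at 83.3 and Nfe2l1 at 74.7. The immunoproteasome genes stood near the bottom, with Psmb10 at 6.52, Psmb8 at 3.21 and Psmb9 at 1.25 CPM per kb. Only Psmc3ip, a meiotic recombination cofactor that shares the name and not the complex, was lower than Psmb9, at 0.595. These levels rest on merged exon lengths, which need not be those of the transcripts present. Without division by length, Psmb10, Psmb8 and Psmb9 averaged 11.1, 10.9 and 4.57 CPM.

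Summed over a class and scaled by TMM factors, core and cap transcripts were highest in WT cold, where the immunoproteasome was lowest. The 14 constitutive core genes summed to 1159 ± 23.8 CPM in KO cold and 1310 ± 91.6 in WT cold, and to 1012 ± 26.6 in KO RT and 974 ± 38.2 in WT RT (SD, n = 3). The 18 cap genes summed to 1475 ± 60.9 CPM in KO cold and 1906 ± 89.6 in WT cold, and to 1426 ± 34.1 in KO RT and 1354 ± 39.97 in WT RT. All 3 WT cold pools lay above all 9 others for both classes. The 3 immunoproteasome genes summed to 29.9 ± 2.77 CPM in KO cold and 16.7 ± 2.50 in WT cold, and to 32.0 ± 2.56 in KO RT and 27.6 ± 3.38 in WT RT. Here all 3 WT cold pools lay below all 9 others. The 4 activator genes, which cap the core without the 19S cap, summed to 267 ± 5.03 CPM in KO cold and 364 ± 10.1 in WT cold, and to 278 ± 8.38 in KO RT and 316 ± 12.2 in WT RT.

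**Figure D1:**
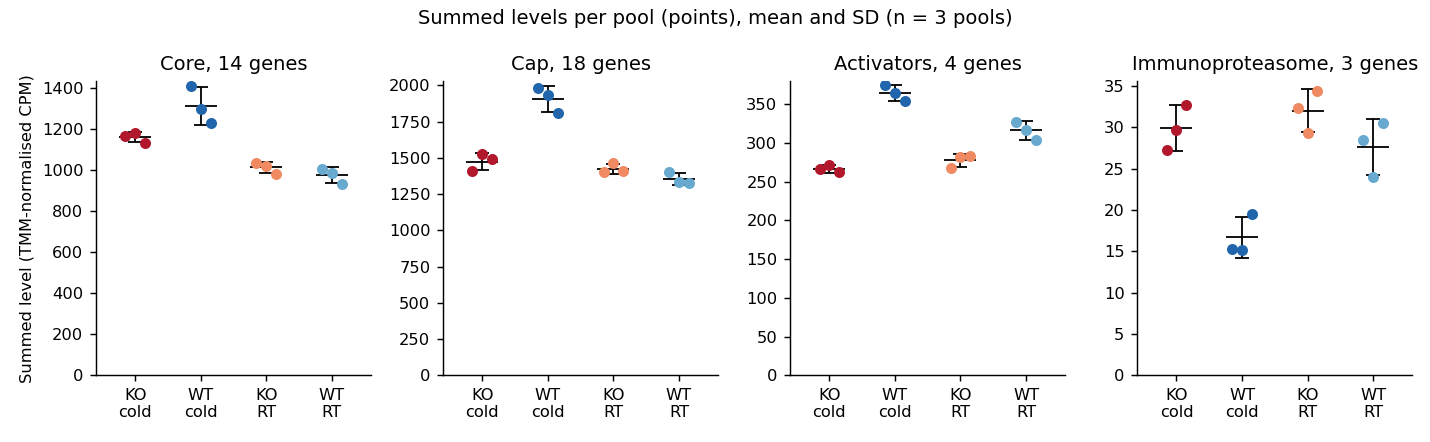
Summed level of each class in CPM scaled by TMM factors, for the 14 core, 18 cap, 4 activator and 3 immunoproteasome genes. Points are pools and lines are mean and SD (n = 3 pools): WT cold is highest for core and cap (1310 and 1906 CPM) and lowest for the immunoproteasome (16.7 CPM). By library totals 10 of the 32 core and cap genes are higher and 1 lower in KO against WT in the cold.

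Cold in WT mice, at 6 h against RT, raised 27 of the 46 genes and lowered 5 (edgeR's quasi-likelihood test, adjusted p under 0.05). That is 58.7% of the genes higher and 10.9% lower, where 23% of all 15208 genes were higher and 23.2% lower. In 36 genes all WT cold pools lay above all WT RT pools and in 5 below them, where 27.6% and 27.9% of all genes did so. The rise covered 24 of the 32 constitutive core and cap genes and none of the 32 was lower. By library totals alone, without TMM factors, 16 of the 32 were higher and none lower, and 26 of the 32 values stayed above 0. Without both muscle-rich libraries 24 of the 46 were higher and 5 lower. The median log2 fold change was 0.28 over the 46 genes and 0.44 over core and cap, against -0.03 over all genes. The 5 lower genes were the 3 of the immunoproteasome and Psme1 and Psme2, the PA28 activator that pairs with it.

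In the core, 5 of 7 alpha genes and 4 of 7 constitutive beta genes rose, with medians of 0.30 and 0.28. Psma1, an alpha ring subunit, rose most of all 46, with 213, 188 and 186 CPM in WT cold pools against 109, 104 and 92.3 in WT RT pools. The groups did not overlap, and the fold was 1.92 (log2 0.94 ± 0.09 SE, adjusted p = 4.6e-07). Psma5, also in the alpha ring, had 51.8, 47.0 and 39.9 CPM in WT cold against 29.9, 26.6 and 25.98 in WT RT (0.75 ± 0.11, adjusted p = 2.2e-05). The catalytic genes rose less than Psma1 and Psma5, but Psmb5 and Psmb7 rose by more than the alpha and beta medians. Psmb5, the chymotrypsin-like subunit, rose by 0.43 ± 0.11 (adjusted p = 0.0031) and Psmb7, the trypsin-like one, by 0.43 ± 0.08 (adjusted p = 4.5e-04). Psmb6, the caspase-like one, rose by 0.28 ± 0.09 (adjusted p = 0.019). By library totals the values of Psmb5, Psmb7 and Psmb6 were 0.23, 0.24 and 0.091 and no longer passed. The call of Psmb6 also ended without WT RT replicate 2 or 3 or WT cold replicate 1 or 2 (0.22 to 0.28).

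Cap genes rose more widely, in 15 of 18 cases: 5 of 6 ATPases, 3 of 4 other base genes and 7 of 8 lid genes, with medians of 0.49, 0.49 and 0.58. The ATPase Psmc4 had 138, 134 and 125 CPM in WT cold pools against 77.9, 72.1 and 74.8 in WT RT pools. These groups lay far apart, at a fold of 1.76 (0.82 ± 0.08, adjusted p = 5.3e-07). Among lid genes, which form the scaffold around the deubiquitinase Psmd14, Psmd11 rose by 0.73 ± 0.11 (adjusted p = 4e-05), Psmd12 by 0.67 ± 0.08 (adjusted p = 6.1e-06) and Psmd13 by 0.66 ± 0.08 (adjusted p = 7.8e-06). Adrm1, the ubiquitin receptor of the base, had 94.0, 85.8 and 78.0 CPM in WT cold against 64.8, 46.5 and 45.5 in WT RT. The lowest cold pool was above the highest RT pool, and the fold was 1.65 (0.72 ± 0.14, adjusted p = 0.0011). Calls of Psma1, Psma5, Psmc4, Psmd11, Psmd12, Psmd13 and Adrm1 held under all 22 alternatives tried.

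Among the genes that serve the particle from outside, the changes were mixed. Pomp, the chaperone that completes the core, was higher by 0.23 ± 0.08 (adjusted p = 0.024), and Psmf1, the inhibitor PI31, by 0.24 ± 0.09 (adjusted p = 0.04). These calls held under 14 and 11 of 22 alternatives. By library totals the values were 0.042 for Pomp and 0.046 for Psmf1, and neither passed. Among other fits, both calls ended when WT RT replicate 2 or 3 or WT cold replicate 1 or 2 was left out. That of Pomp also ended without WT cold replicate 3. That of Psmf1 also ended without KO RT replicate 6 or KO cold replicate 2 and with the replicate block. Psme3, the nuclear activator PA28 gamma, had 135, 145 and 139.8 CPM in WT cold against 115, 80.4 and 84.4 in WT RT, without overlap, and was 1.51-fold higher (0.59 ± 0.12, adjusted p = 6.8e-04). Nfe2l1 had 461, 483 and 473 CPM in WT cold against 445, 451 and 455 in WT RT. The groups did not overlap but lay close together, and the difference did not pass (0.07 ± 0.09, adjusted p = 0.58). By library totals its value was -0.13.

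The immunoproteasome genes went the other way. Psmb9 had 1.499, 1.45 and 2.68 CPM in WT cold pools against 5.60, 4.44 and 6.24 in WT RT pools. Every cold pool was below every RT pool, and the level was 2.87-fold lower (-1.52 ± 0.23, adjusted p = 4.9e-05). Psmb10 had 7.23, 8.26 and 8.53 CPM in WT cold against 10.4, 11.9 and 12.6 in WT RT, again without overlap (-0.54 ± 0.11, adjusted p = 7.9e-04). Psmb8 had 6.52, 5.49 and 8.34 CPM in WT cold against 12.5, 7.54 and 11.7 in WT RT. Its groups overlapped, since WT RT replicate 2 was below WT cold replicate 3, while the difference passed (-0.63 ± 0.18, adjusted p = 0.0096). Psme1 and Psme2 fell by 0.38 ± 0.09 (adjusted p = 0.0037) and 0.44 ± 0.09 (adjusted p = 7.4e-04). All 5 falls held under all 22 alternatives, library totals included.

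**Figure D2:**
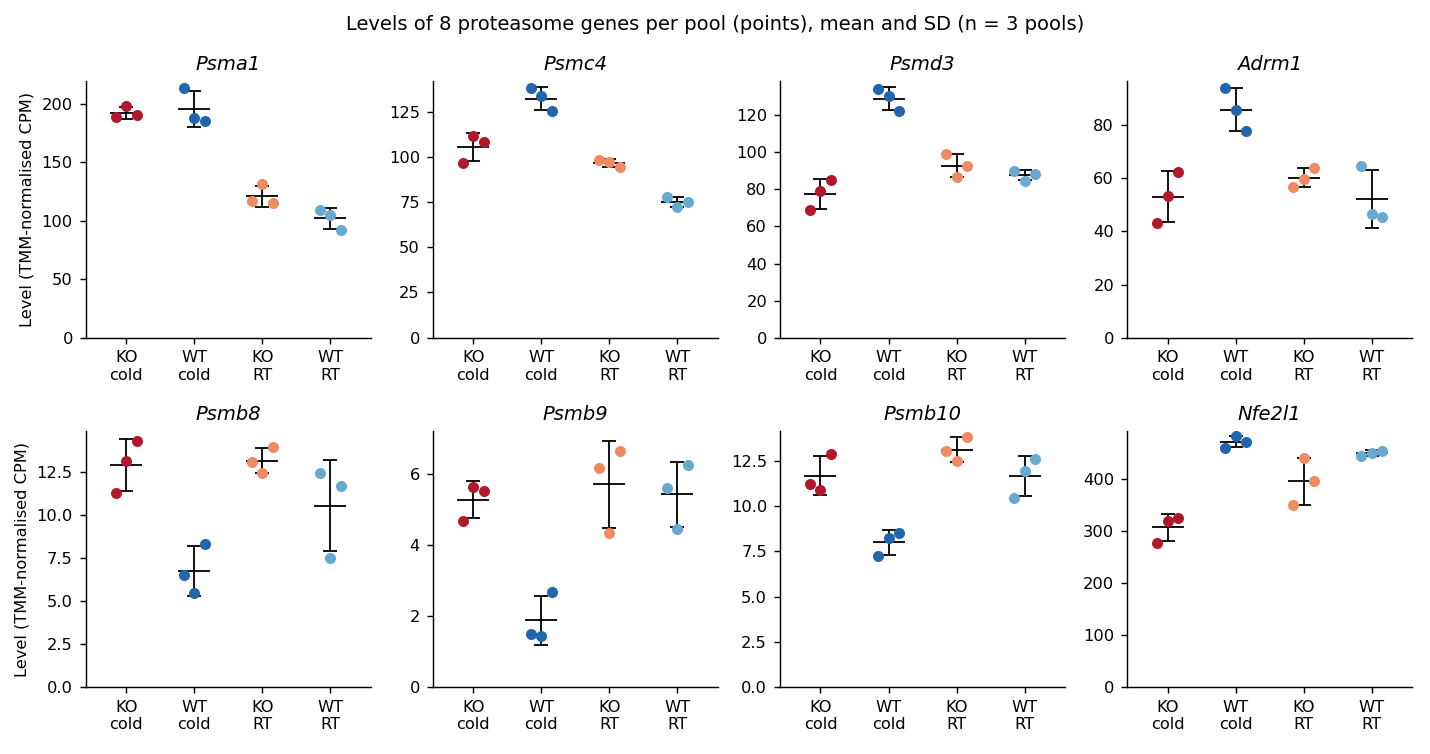
Level of 8 genes in CPM scaled by TMM factors, by group. Points are pools and lines are mean and SD (n = 3 pools): Psma1, Psmc4, Psmd3 and Adrm1 are higher in WT cold than in WT RT, and Psmb9 averages 5.27 CPM in KO cold, 1.88 in WT cold, 5.70 in KO RT and 5.42 in WT RT.

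Letters known to bind NFE2L1 and NFE2L2, the antioxidant response element TGACNNNGC on either strand, were looked for in the 250 bases before the start of each gene (RefSeq, GRCm38.p6), because the core and cap genes rose together. Promoters were at hand for 40 of the 46 genes. The element was in 4 of 22 genes that were higher in WT cold (18.2%), in 2 of the other 18 (11.1%, Psmc6 and Psmd9) and in none of the 3 immunoproteasome genes, against 3112 of all 27025 genes of the table (11.5%). The 4 were Adrm1, Psmb5, Psmb6 and Psmd12. The other 18 of the 22, Psma1 among them, do not hold these letters in this window. CCAAT, the box that NF-Y binds, was in 16 of the 40 (40%) and in 37.5% of all genes. The 4 elements are shown with the bases around them, the element in capitals, on the strand of the gene and clipped at annotated exons. In Psmd12 the element lies on the other strand, so the capitals are its reverse complement.
Adrm1 (chr2:180171386-180171474, plus strand): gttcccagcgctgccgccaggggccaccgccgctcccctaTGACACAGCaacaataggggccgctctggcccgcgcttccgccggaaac
Psmb5 (chr14:54618023-54618082, minus strand): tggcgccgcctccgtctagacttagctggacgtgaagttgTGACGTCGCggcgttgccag
Psmb6 (chr11:70525308-70525356, plus strand): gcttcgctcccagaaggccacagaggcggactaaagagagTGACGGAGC
Psmd12 (chr11:107479278-107479329, plus strand): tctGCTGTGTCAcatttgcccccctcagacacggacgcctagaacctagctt
Counted from the start site, the element of Psmb6 lies at -9 to -1, that of Psmb5 at -47 to -39, that of Adrm1 at -162 to -154 and that of Psmd12 at -247 to -239. A match of letters shows no binding.

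In KO mice the same 6 h of cold changed few of these genes: 4 of 46 were higher (8.7%, against 7.29% of all genes) and 1 was lower (2.17%, against 7.56%). In 12 genes all KO cold pools lay above all KO RT pools and in 2 below them, where 15.3% and 17.4% of all genes did so. The share of higher genes is close to the background. The one large rise was that of Psma1, with 188, 198 and 190.5 CPM in KO cold pools against 117, 131 and 115 in KO RT pools. All cold pools were above all RT pools, at a fold of 1.59 (0.67 ± 0.09, adjusted p = 1.1e-04), and the call held under all 21 alternatives. The cap chaperone Psmd5 (0.36 ± 0.11, adjusted p = 0.03), the ATPase Psmc2 (0.27 ± 0.08, adjusted p = 0.025) and the alpha subunit Psma6 (0.27 ± 0.09, adjusted p = 0.045) were also higher. Their calls ended by library totals (0.39, 0.30 and 0.30) and without KO cold replicate 1, KO cold replicate 2 or KO RT replicate 6. That of Psmd5 also ended without KO RT replicate 4 or 5, and that of Psmc2 without KO RT replicate 4. That of Psma6 also ended without KO RT replicate 5, WT RT replicate 2 or WT cold replicate 1 or 2. Without both muscle-rich libraries 1 gene was higher, Psma1, and none lower.

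Nfe2l1 was the 1 lower gene, with 278, 320.4 and 325 CPM in KO cold pools against 351, 441 and 396 in KO RT pools. The groups did not overlap (-0.36 ± 0.09, adjusted p = 0.014). The call ended without KO cold replicate 1 (-0.29, adjusted p = 0.086), without both muscle-rich libraries (-0.36, adjusted p = 0.061), in a fit of only the libraries compared (-0.35, adjusted p = 0.055) and by library totals (-0.34, adjusted p = 0.068), and it held under the other 17 of 21 alternatives. Without KO RT replicate 5 the value was -0.28 (adjusted p = 0.049). The immunoproteasome genes did not pass: Psmb8 differed by -0.03 ± 0.17 (adjusted p = 0.94), Psmb9 by -0.11 ± 0.21 (0.76) and Psmb10 by -0.17 ± 0.11 (0.32). Psmb9 levels were 4.68, 5.61 and 5.52 CPM in KO cold against 6.16, 4.32 and 6.62 in KO RT, and the groups overlapped. Without KO RT replicate 6 the values of Psmb8 and Psmb9 were 0.014 and 0.003, and without KO cold replicate 1 that of Psmb8 was 0.061. The remaining genes named for their role did not pass either: Adrm1 (-0.18), Pomp (0.16), Psmf1 (-0.02), Psme1 (-0.09), Psme2 (0.07), Psmb5 (0.20), Psmb6 (-0.01) and Psmb7 (0.18).

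KO against WT in the cold gave 24 lower and 4 higher of the 46 genes. Among the 46, 52.2% were lower and 8.7% higher, where 27.8% and 25.9% of all genes were. In 26 genes all KO cold pools lay below all WT cold pools and in 4 above them, where 32.1% and 30.6% of all genes did so. None of the 32 core and cap genes was higher and 19 were lower by TMM factors, but by library totals alone 10 of the 32 were higher and 1, Psmd3, was lower. The median of all genes was 0.01 by TMM factors and 0.45 by library totals, and the calls of all genes were 3939 higher and 4222 lower by TMM factors and 7881 higher and 1073 lower by library totals. Without both muscle-rich libraries 4 of the 46 were higher and 23 lower by TMM factors. Relative to the median of all genes, 39 of the 46 genes lay below it and the median of the 46 lay 0.25 below it. A change of scaling shifts all genes nearly alike, so this position is fixed by construction and does not bear on which scaling holds. Which of the scalings is nearer to RNA per cell was not tested. Mitochondrially encoded genes took 31.06 to 35.97% of gene counts in KO cold pools and 34.57 to 40.62% in WT cold pools. By TMM factors with these genes left out, 4 of the 46 were again higher and 24 lower. The part of mitochondrial counts in the gap between both scalings was not tested. Of 10 brown adipocyte markers 4 were lower in KO cold against WT cold by TMM factors, and 5 higher and 2 lower by library totals. By library totals 51.8% of all genes were higher and 7.06% lower. The markers summed to 14262 to 15235 CPM in KO cold and 27225 to 30081 in WT cold. At RT 6 of the 10 were lower in KO by TMM factors, at 12908 to 15937 CPM in KO RT and 19180 to 21641 in WT RT. By library totals 1 was higher and 2 lower at RT. The part of these markers' cells in the differences was not tested.

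**Figure D3:**
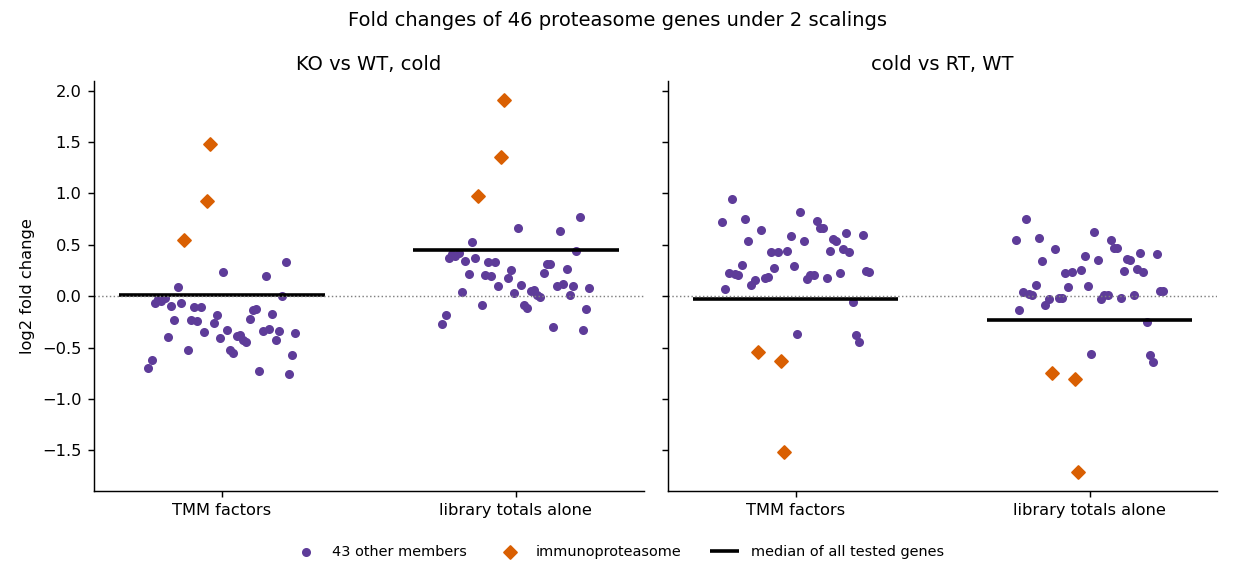
Log2 fold changes of the 46 genes under TMM factors and under library totals alone, for KO against WT in the cold and for cold against RT in WT. Points are genes, diamonds are the immunoproteasome and black lines are the median of all 15208 genes: in KO against WT in the cold most core and cap values are below 0 by TMM factors and turn to above 0 by library totals. The line moves with the genes, so the 39 of 46 below it stay the same by construction.

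The lower genes sat mainly in the cap, with 14 of 18 lower against 5 of 14 in the core, at medians of -0.36 and -0.11 by TMM factors (0.07 and 0.33 by library totals). Psmd3, a lid subunit, had 68.9, 79.2 and 84.8 CPM in KO cold pools against 134, 131 and 122 in WT cold pools. The groups were far apart and the level was 1.66-fold lower (-0.73 ± 0.09, adjusted p = 4.2e-06), a call that held under all 22 alternatives. Adrm1 had 43.4, 53.3 and 62.5 CPM in KO cold against 94.0, 85.8 and 78.0 in WT cold, without overlap (-0.70 ± 0.14, adjusted p = 0.0012, and -0.27, adjusted p = 0.061, by library totals). The ATPase Psmc6 had 78.2, 76.7 and 79.2 CPM in KO cold against 118, 116 and 110.0 in WT cold (-0.55 ± 0.07, adjusted p = 9e-06, and -0.12, adjusted p = 0.33, by library totals). Psmb7 (-0.35 ± 0.08, adjusted p = 0.0024) and Psmf1 (-0.36 ± 0.09, adjusted p = 0.0033) were lower by TMM factors and were 0.094 and 0.082 by library totals, not past the test. Psmb5 (-0.24, adjusted p = 0.063), Psmb6 (-0.11, adjusted p = 0.34) and Pomp (-0.06, adjusted p = 0.51) did not pass.

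Outside the cap, Psme3 had 72.5, 84.3 and 91.5 CPM in KO cold pools against 135, 145 and 139.8 in WT cold pools. This was the largest fall of the 46, again without overlap (-0.76 ± 0.12, adjusted p = 6.5e-05), and it held under all 22 alternatives. Psme4, the nuclear activator PA200, fell by 0.57 ± 0.10 (adjusted p = 2.3e-04), and by library totals its value was -0.13 (adjusted p = 0.44). Nfe2l1 had 278, 320.4 and 325 CPM in KO cold against 461, 483 and 473 in WT cold. All KO pools were lower, at 65.2% of the WT level (-0.62 ± 0.09, adjusted p = 4.2e-05), and by library totals the value was -0.18 (adjusted p = 0.18). Of the alpha subunits, 2 of 7 were lower by TMM factors and 5 of 7 higher by library totals, and Psma1 was at 188 to 198 CPM in KO cold and 186 to 213 in WT cold.

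The 4 genes higher in KO cold were all 3 of the immunoproteasome and Psme2. Psmb9 had 4.68, 5.61 and 5.52 CPM in KO cold pools against 1.499, 1.45 and 2.68 in WT cold pools. The groups did not overlap and the fold was 2.78 (1.48 ± 0.23, adjusted p = 5.8e-05). Psmb8 had 11.3, 13.2 and 14.3 CPM in KO cold against 6.52, 5.49 and 8.34 in WT cold, a fold of 1.90 without overlap (0.93 ± 0.18, adjusted p = 5.4e-04). Psmb10 had 11.2, 10.9 and 12.9 CPM in KO cold against 7.23, 8.26 and 8.53 in WT cold (0.54 ± 0.11, adjusted p = 7.1e-04). Psme2 differed by 0.33 ± 0.09 (adjusted p = 0.0055) and its partner Psme1 by 0.00 ± 0.09 (adjusted p = 1.0). The calls of Psmb8, Psmb9, Psmb10 and Psme2 held under all 22 alternatives, library totals included. KO against WT in the cold shares its WT cold pools with cold in WT, so that the fall there and the higher level here rest in part on the same 3 pools.

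Psmb9 and Psmb8 lie next to the peptide transporter genes Tap1 and Tap2 on chromosome 17 (GRCm38: Psmb9 34181987 to 34187764, minus strand, Tap1 34187553 to 34197225, Psmb8 34197721 to 34201454 and Tap2 34203527 to 34216321, plus strand). The RefSeq starts of Psmb9 and Tap1 face each other across 225 bases, and 212 bases of exon are shared on opposite strands. Reverse-strand counting keeps reads from these shared bases apart if the libraries are stranded. Tap1 averaged 8.42 CPM in KO cold and 4.25 in WT cold, and 9.21 in KO RT and 11.8 in WT RT. It was 0.98 ± 0.16 higher in KO than in WT in the cold (adjusted p = 1.1e-04) and 1.47 ± 0.16 lower in cold than at RT in WT (adjusted p = 2.3e-06). Of 12 genes of antigen processing, 7 were higher and 2 lower in KO cold against WT cold, among the higher H2-K1 (0.91 ± 0.10, adjusted p = 1.9e-06) and H2-D1 (0.76 ± 0.10, adjusted p = 1.3e-05), MHC class I heavy chains, and Tapbp (0.53 ± 0.07, adjusted p = 1.4e-05), the peptide loader. The 2 lower were Calr and Pdia3, chaperones of the endoplasmic reticulum. By library totals none of the 12 was lower and all 12 values were above 0. For cold in WT 2 were higher, Calr and Pdia3, and 6 lower (1 and 9 by library totals), with Tap2 at -1.12 ± 0.14 (adjusted p = 7.6e-06) and the trimming peptidase Erap1 at -0.72 ± 0.08 (adjusted p = 3.4e-06). Cold in KO gave 1 higher, KO against WT at RT gave 2 higher and 3 lower, and the interaction was positive for 7 and negative for 1. Of all genes, 25.9% were higher and 27.8% lower for KO against WT in the cold, and 19.3% and 21% at RT. For cold in WT the shares were 23% and 23.2%, for cold in KO 7.29% and 7.56%, and for the interaction 10.6% and 12.9%. By library totals they were 51.8% and 7.06% for KO against WT in the cold, and 12% and 31.6% for cold in WT.

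Immune cell markers were higher in KO mice at both temperatures. Macrophage markers summed to 269 to 371 CPM in KO cold and 103 to 106 in WT cold, and to 232 to 298 in KO RT and 74.0 to 96.7 in WT RT, with 8 of 9 tested higher in KO against WT in the cold and 8 of 9 at RT. Itgam was listed at 0 in all 12 libraries. Markers of dendritic and other antigen-presenting cells summed to 249.7 to 279 CPM in KO cold and 144 to 165 in WT cold, and to 239 to 384 in KO RT and 133 to 162 in WT RT, with 5 of 8 higher in the cold and 4 of 8 at RT. Those of T, NK and B cells summed to 5.02 to 7.13 CPM in KO cold and 2.36 to 3.28 in WT cold, and to 5.34 to 6.39 in KO RT and 2.56 to 3.37 in WT RT, with 5 of 9 tested higher in the cold and 3 of 9 at RT. For cold against RT in WT, 3 of 9 macrophage markers were higher and none lower by TMM factors (median 0.21), and 2 higher and 1 lower by library totals. Of 8 dendritic markers 1 was lower and none higher (median -0.33), and of 9 T, NK and B cell markers 1 was higher and none lower (median -0.50). Endothelial, smooth muscle and fibroblast markers gave 5 higher and 1 lower, 5 higher and 1 lower, and 4 higher and none lower of 8 each in KO against WT in the cold. Of all genes, 25.9% were higher and 27.8% lower for KO against WT in the cold, and 19.3% and 21% at RT. For cold in WT the shares were 23% and 23.2%, or 12% and 31.6% by library totals. The part of all these cell types in the immunoproteasome values was not tested.

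At RT, KO and WT pools differed in few of the 46 genes: 5 were higher in KO (10.9%, against 19.3% of all genes) and 3 lower (6.52%, against 21%), with a median of 0.03. In 8 genes all KO RT pools lay above all WT RT pools and in 5 below them, where 23.9% and 24.9% of all genes did so. By library totals 20 were higher and none lower, at an all-gene median of 0.22, and without both muscle-rich libraries 2 were higher and 1 lower. The higher genes were Psma5 (0.40 ± 0.11, adjusted p = 0.006), Psmc4 (0.37 ± 0.08, adjusted p = 0.0015), Psmd7 (0.30 ± 0.08, adjusted p = 0.0068), Psmd13 (0.29 ± 0.08, adjusted p = 0.011) and Psma1 (0.25 ± 0.09, adjusted p = 0.035). Psmc4 had 98.4, 97.4 and 94.4 CPM in KO RT pools against 77.9, 72.1 and 74.8 in WT RT pools, a clear separation, and its call and that of Psma5 held under all 21 alternatives. The call of Psma1 held under 14 of 21 alternatives. Among other fits, it ended without KO RT replicate 5, WT RT replicate 2 or 3 or WT cold replicate 2. Without both muscle-rich libraries the calls of Psma1, Psmd7 and Psmd13 all ended. The lower genes were Psme4 (-0.34 ± 0.10, adjusted p = 0.015), Psmc6 (-0.33 ± 0.07, adjusted p = 0.0015) and Psme1 (-0.29 ± 0.09, adjusted p = 0.022), and none of the 3 passed by library totals. Psme4 also failed without WT RT replicate 2, and Psme1 without KO RT replicate 5 or WT RT replicate 1. Without both muscle-rich libraries Psme4 and Psme1 failed as well.

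None of the immunoproteasome genes passed at RT. Psmb8 had 13.1, 12.5 and 13.95 CPM in KO RT pools against 12.5, 7.54 and 11.7 in WT RT pools, just without overlap (0.32 ± 0.17, adjusted p = 0.15). It passed by library totals (0.55, adjusted p = 0.012) and by limma voom (0.46, adjusted p = 0.033). Psmb9 differed by 0.07 ± 0.21 (adjusted p = 0.81), with a sign that turned without KO RT replicate 6 or WT RT replicate 2 (-0.047 and -0.058), and Psmb10 by 0.17 ± 0.11 (adjusted p = 0.23, or 0.38 and 0.032 by library totals). Nfe2l1 was at 351, 441 and 396 CPM in KO RT against 445, 451 and 455 in WT RT, lower in each KO pool without passing (-0.19 ± 0.09, adjusted p = 0.12). Without KO RT replicate 5 it passed (-0.27, adjusted p = 0.034), and by library totals it was 0.030. Adrm1 (0.21), Pomp (0.00), Psmf1 (-0.10), Psme2 (-0.18), Psmb5 (-0.01), Psmb6 (0.18) and Psmb7 (-0.10) did not pass.

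**Figure D4:**
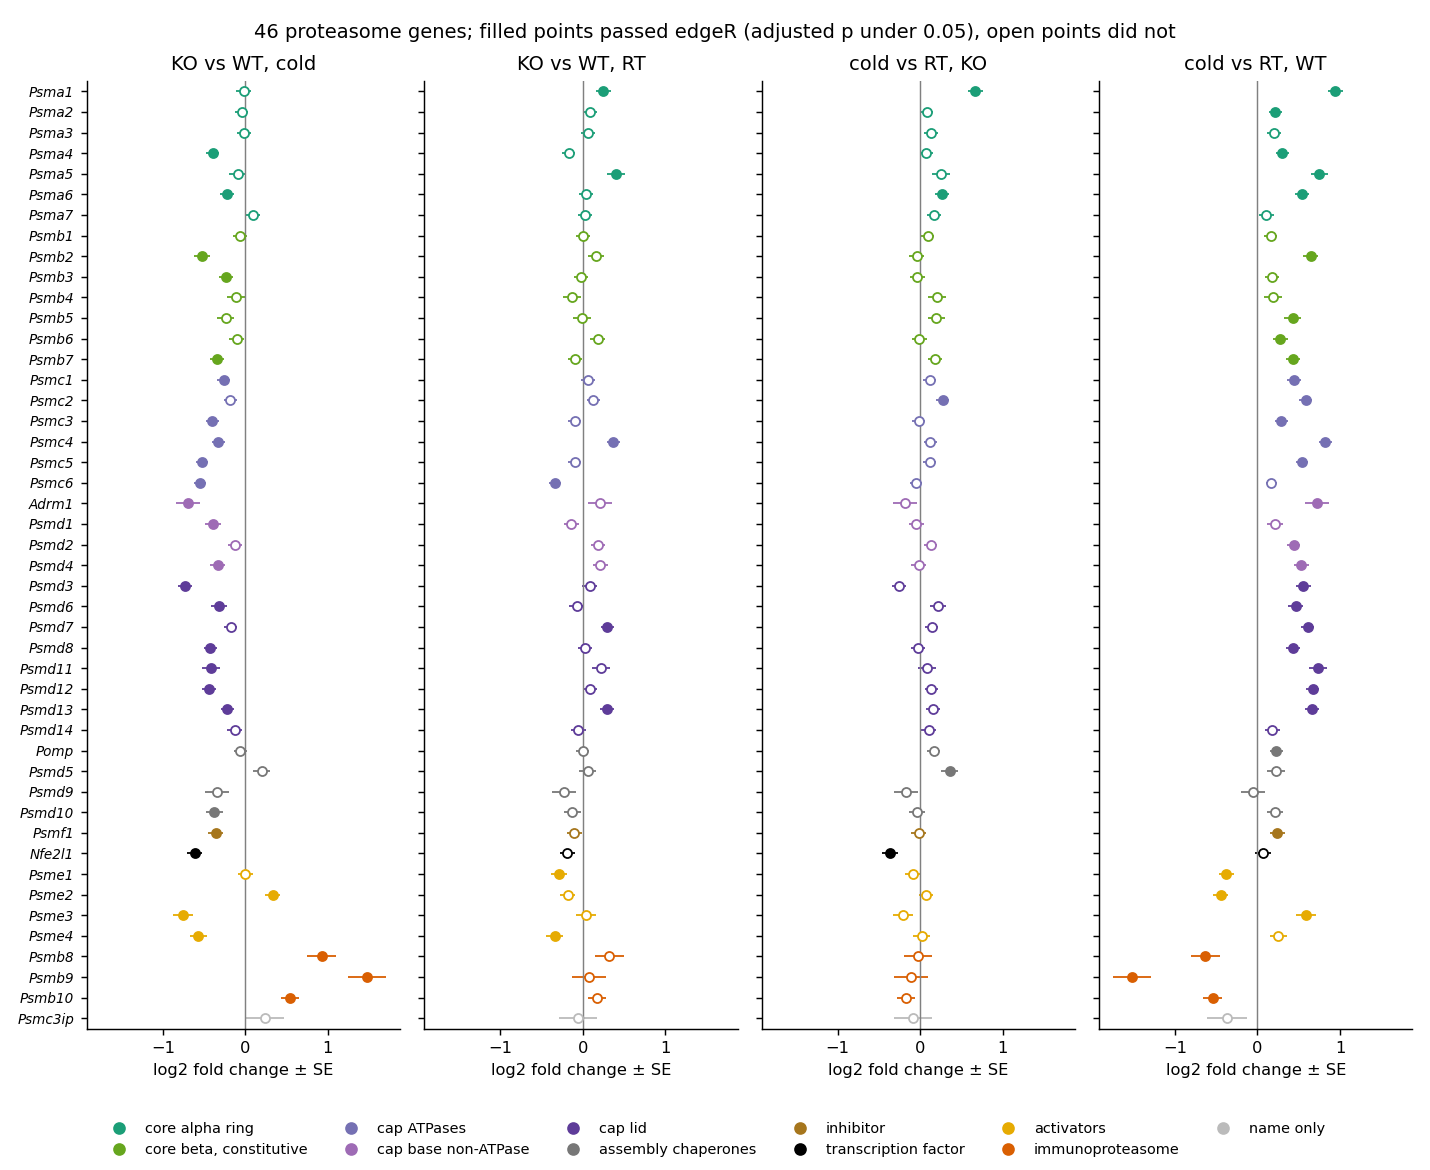
Log2 fold change with SE of the 46 genes in the 4 pairwise comparisons, scaled by TMM factors, ordered by role. Filled points passed edgeR's test: 24 were lower and 4 higher in KO against WT in the cold (2 and 18 by library totals), 3 and 5 at RT (0 and 20), 1 and 4 for cold in KO (0 and 1), and 5 and 27 for cold in WT (5 and 17).

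The difference between both cold responses, KO minus WT, was tested by an interaction term. It was negative past the test in 15 of the 46 genes and positive in 2, where 12.9% and 10.6% of all genes were. By library totals it was negative in 6 and positive in 5. Without both muscle-rich libraries it was negative in 10 and positive in 2. Of the 15, 11 were cap genes (of 18) and 2 core genes (of 14), and by library totals 4 and 1 were. Adrm1 had the most negative value, at -0.90 ± 0.20 (adjusted p = 0.0066): its cold difference was 0.72 in WT and -0.18 in KO. Psmd3 followed at -0.81 ± 0.12 (adjusted p = 3.1e-04), Psme3 at -0.80 ± 0.17 (adjusted p = 0.003), Psmc4 at -0.69 ± 0.11 (adjusted p = 4.8e-04), Psmb2 at -0.69 ± 0.13 (adjusted p = 0.0017) and Psmd11 at -0.64 ± 0.15 (adjusted p = 0.0065). These 6 held under all 20 alternatives.

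Psmb9 (1.40 ± 0.31, adjusted p = 0.004) and Psme2 (0.52 ± 0.13, adjusted p = 0.0083) were the positive ones. Psmb9 held under all 20 alternatives, and Psme2 under all but the fit without both muscle-rich libraries (0.45, adjusted p = 0.058). Psmb8 (0.60 ± 0.25, adjusted p = 0.092) and Psmb10 (0.37 ± 0.16, adjusted p = 0.093) had the same sign and did not pass, so a different cold response is not shown for them by TMM factors. By library totals both passed, Psmb8 at 0.81 (adjusted p = 0.021) and Psmb10 at 0.60 (adjusted p = 0.033). The call of Psmb8 was unlike the main one under 5 of 20 alternatives and that of Psmb10 under 2 of 20. Psmb8 also passed with no filter on low counts (0.65, adjusted p = 0.0066), without both muscle-rich libraries (0.84, adjusted p = 0.023), without WT RT replicate 2 (0.80, adjusted p = 0.013) or WT cold replicate 3 (0.79, adjusted p = 0.033), and Psmb10 also passed without WT RT replicate 1 (0.46, adjusted p = 0.039). The interaction shares the WT cold pools with both comparisons above and is no separate evidence for them.

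Transcripts of each immunoproteasome gene were also set against those of its constitutive counterpart, as a ratio within each pool per kilobase of exon. Such a ratio in bulk tissue may join transcripts of different cells, and no protein was measured. Its size depends on the merged exon lengths (3.38 kb for Psmb8 and 0.899 kb for Psmb5), which need not be those of the transcripts present. The order of the groups does not depend on these lengths. Psmb9 was at 3.25 ± 0.152% of Psmb6 in KO cold and 1.10 ± 0.506% in WT cold, and at 3.47 ± 0.566% in KO RT and 3.78 ± 0.655% in WT RT (SD, n = 3). Psmb8 was at 10.6 ± 2.15% of Psmb5 in KO cold and 4.72 ± 1.29% in WT cold, and at 12.3 ± 1.42% in KO RT and 9.86 ± 2.97% in WT RT. Psmb10 was at 22.9 ± 3.82% of Psmb7 in KO cold and 12.3 ± 1.84% in WT cold, and at 29.0 ± 2.20% in KO RT and 24.1 ± 2.82% in WT RT. Each ratio was lower in every WT cold pool than in any pool of the other groups. Being taken within a pool, these ratios do not depend on the scaling, and they are a description with no test.

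A list of 8 genes around NFE2L1 holds factors that process or degrade it (Ngly1, Ddi2, Vcp, Syvn1 and Sel1l) and the separate transcription factors Nfe2l2, Nfe2l3 and Hsf1, so its counts are not counts of activators. Of the 8, 6 were lower and none higher in KO cold against WT cold by TMM factors, at a median of -0.44, but by library totals 1 was higher and none was lower. Among them Ngly1, the enzyme that strips sugars from NFE2L1, differed by -0.61 ± 0.08 (adjusted p = 8e-06), Ddi2, the protease that cuts it free, by -0.43 ± 0.09 (adjusted p = 8.8e-04), Vcp, the extracting ATPase, by -0.37 ± 0.08 (adjusted p = 0.0017), and Syvn1, a ubiquitin ligase that marks it for degradation, by -0.46 ± 0.11 (adjusted p = 0.0019). At RT 4 of 8 were lower in KO (2 lower and 2 higher by library totals). For cold in WT 2 rose (1 by library totals), Syvn1 (0.68 ± 0.11, adjusted p = 7.1e-05) and Ddi2 (0.52 ± 0.09, adjusted p = 1.9e-04), and 2 fell, and for cold in KO 1 fell, Hsf1. The interaction was negative for 3 of the 8.

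Ubiquitin genes and the shuttles that carry tagged proteins to the proteasome gave 2 higher and 8 lower of 14 in KO cold against WT cold, and 6 higher and 2 lower by library totals. Ubb, a polyubiquitin gene, was 1.12 ± 0.12 higher (adjusted p = 1.5e-06), at a mean of 142 CPM in KO cold against 65.2 in WT cold. The shuttle factor Ubqln4 was lower by 0.83 ± 0.09 (-0.83, adjusted p = 2.4e-06), Nploc4, a cofactor of Vcp, by 0.65 ± 0.09 (-0.65, adjusted p = 1.8e-05) and Uba1, the main ubiquitin-activating enzyme, by 0.59 ± 0.08 (-0.59, adjusted p = 1.1e-05). For cold in WT 7 of 14 rose and 1 fell, or 4 and 2 by library totals. Ubqln1 rose by 1.03 ± 0.11 (adjusted p = 1.1e-06), Nploc4 by 1.02 ± 0.09 (adjusted p = 2.3e-07) and Rad23b, a shuttle factor, by 0.99 ± 0.10 (adjusted p = 6.7e-07). In KO the cold raised 2 and lowered 1, and the interaction was negative for 7 and positive for 1, with Nploc4 at -0.87 ± 0.13 (adjusted p = 2.6e-04). KO against WT at RT gave 2 higher and 1 lower.

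Of 10 tested genes that assemble or attend the particle, 1 was higher and 5 lower in KO cold against WT cold, but 5 higher and none lower by library totals. The ubiquitin ligase Ube3c was lower by 0.58 ± 0.10 (-0.58, adjusted p = 9.7e-05) and the cap deubiquitinase Usp14 by 0.37 ± 0.10 (-0.37, adjusted p = 0.0057), while Uchl5, another deubiquitinase of the cap, was 0.49 ± 0.10 higher (adjusted p = 8e-04). For cold in WT 4 rose and none fell, or 1 and 1 by library totals, with Txnl1, a thioredoxin-like protein of the cap, at 0.69 ± 0.10 (adjusted p = 2e-05). Cold in KO gave 1 higher gene, Txnl1, as did KO against WT at RT, and the interaction was negative for Ube3c and Txnl1.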

How the data were processed

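RNA from brown fat was sequenced in 12 libraries of 2 pooled mice each (250 ng of RNA per mouse). The deposited values are raw counts per gene, made by the authors with STAR and HTSeq on GRCm38, per the submitters' processing notes, with versions not given in the sources used here. The counts are labelled as reverse-strand counts (htseq-reverse), while the strandedness of the library preparation is not given. Of the 46 genes, 13 overlap exons of another gene. Psmb9 with Tap1, Psmb8 with Gm20496, Psmb7 with Nek6 and Psmd13 with Sirt3 overlap on opposite strands. Reverse-strand counting keeps such reads apart if the libraries are stranded. Psmb5 with Mir686 and Psmd1 with Gm21972 overlap on the same strand, so reads from their shared bases are uncertain. Reads with several alignments were 26.6 to 30.2% in the files' summary lines and entered no gene, so genes with processed pseudogenes may be undercounted. The 5 summary lines were left out.

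Counts were tested with edgeR 4.0.16 (R 4.3.3): TMM factors, filterByExpr, 1 mean per group over all 12 libraries, robust quasi-likelihood F tests, 2-sided, Benjamini-Hochberg adjustment over 15208 genes, threshold 0.05. SE is the log2 fold change divided by the root of F. Levels per kilobase use the merged exon length. Pools of a group are separate RNA pools. Replicate libraries differed by more than sampling noise. The script was checked on simulated data.

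The genes named with full statistics are Nfe2l1, Pomp, Psmf1, Adrm1, Psme1, Psme2, Psmb5 to Psmb10, and per comparison the 8 called genes with the largest change, plus up to 4 genes of smallest p from each other list. Genes named outside this rule were chosen after their values were seen. The 46 genes and all lists were chosen with earlier results of these data known. Alternatives were 22: DESeq2 1.42.0, limma 3.58.1 voom, other scalings, filters and sample sets, a replicate block, and fits that drop 1 library at a time.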

Additional observations from a re-analysis of the deposited data

Results flagged for a closer look

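The cold response of KO mice differed from that of WT mice by the interaction term of edgeR's quasi-likelihood test in 17 of the 46 genes. The values are log2 cold response in KO minus that in WT. Positive values were those of Psmb9 (1.40) and Psme2 (0.52).

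In the cap, the values were -0.90 for Adrm1, -0.81 for Psmd3, -0.69 for Psmc4, -0.64 for Psmd11, -0.55 for Psmd4, -0.53 for Psmd12, -0.51 for Psmd13, -0.47 for Psmd7, -0.45 for Psmd8, -0.43 for Psmc5 and -0.31 for Psmc2. In the core they were -0.69 for Psmb2 and -0.50 for Psma5, and outside the particle -0.80 for Psme3 and -0.43 for Nfe2l1. None of the 17 changed sign under the 20 alternatives that apply. By library totals alone 6 remained negative past the test, namely Psmd3, Psmd11, Psmb2, Psmc4, Adrm1 and Psme3. The calls of Psmc2, Nfe2l1 and Psma5 held under 5, 10 and 12 of the 20, and the others under at least 18.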

How the results depend on the processing

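By library totals alone, counts of higher and lower genes among the 46 were 18 and 2 for KO against WT in the cold, 20 and 0 for KO against WT at RT, 1 and 0 for cold in KO, 17 and 5 for cold in WT, and 5 and 6 for the interaction. Over all genes the same scaling gave 51.8% higher and 7.06% lower for KO against WT in the cold, 31.2% and 8.33% at RT, 12% and 31.6% for cold in WT, and 15.7% and 4.68% for the interaction. With limma voom 11 were higher for KO against WT at RT, and 11 higher and 4 lower for cold in KO. DESeq2 gave 2 lower for cold in KO, and the fit of only the libraries compared gave 0. Without the 2 muscle-rich libraries, 2 were higher and 1 lower for KO against WT at RT, and 1 and 0 for cold in KO. The causes were not tested.

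With each library left out in turn, the higher and lower counts ranged over 4 to 5 and 20 to 27 for KO against WT in the cold, 4 to 9 and 2 to 3 at RT, 1 to 4 and 0 to 2 for cold in KO, 23 to 28 and 5 for cold in WT, and 2 to 4 and 12 to 16 for the interaction. The 9 came without WT RT replicate 1, the 1 without KO RT replicate 6 or KO cold replicate 1 or 2, the 0 without KO cold replicate 1, the 2 lower without KO RT replicate 5 or KO cold replicate 3, and the 4 of the interaction without WT cold replicate 3. For cold in KO, 2 were higher without KO RT replicate 4.

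Signs turned by library totals for Nfe2l1 in KO against WT at RT (0.030) and in cold in WT (-0.13), and for Psmb7 (0.094) and Psmf1 (0.082) in KO against WT in the cold. Without the muscle-rich libraries they turned for Psmb9 in KO against WT at RT (-0.18, and -0.058 to 0.23 over single libraries left out), and for cold in KO for Psmb8 (0.013, and -0.11 to 0.061) and Psmb9 (0.0024, and -0.28 to 0.003).

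The replicate block could be fitted for KO against WT in the cold (4 higher, 22 lower) and for cold in WT (27 higher, 5 lower). Same-numbered pools did not clearly deviate together (correlations from -0.267 to 0.229, for KO cold with WT cold and WT cold with WT RT). These few values cannot settle whether the numbers pair samples. KO RT pools share no number with other groups.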
